A study of Mus musculus with 12 samples.

Results

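Alveolar type 2 cells make, store and secrete pulmonary surfactant, and 32 genes of these cells were followed through bleomycin lung injury with and without injected polymer nanoparticles. The genes were chosen by symbol, as surfactant proteins, lamellar body genes, cell identity genes and genes of fatty acid or phospholipid synthesis. All 32 were found among the 55491 entries of the deposited count table, each at 1 entry, and all 32 were among the 17909 genes that passed the filter on low counts. The mice formed 3 groups of 4 and were wild-type male C57BL/6J animals, 10 weeks old, each giving 1 library from its whole lungs (all 5 lobes, without the large airways and trachea). Every mouse had received bleomycin, an antitumour antibiotic that damages alveolar epithelium, through the mouth into the airways at 0.0125 U per mouse, so no group stands for an uninjured lung. The day 14 mice were taken 14 days after bleomycin, before any injection. The vehicle mice (phosphate-buffered saline) and the nanoparticle mice were taken at day 21. Nanoparticles had a poly(lactide-co-glycolide) core coated with poly(ethylene-alt-maleic anhydride), and 2 mg was injected behind the eye daily from day 14 to day 18, which made 5 doses.

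Surfactant is a film of phospholipid and protein that lowers surface tension in the alveoli and keeps them from collapsing. The type 2 cell builds its main lipid, a disaturated phosphatidylcholine, from newly made fatty acids, packs it with the surfactant proteins into lamellar bodies, and takes much of the used material up again. The same cell divides and gives rise to the flat type 1 cells of gas exchange after injury, passing through a transitional state with high keratin expression.

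The promoters of 4 of the genes are shown because these genes were higher at day 21 in both injected groups, as described below. Each stretch is the 250 bases before the transcript start, 5′ to 3′ on the gene's own strand, from RefSeq on GRCm38.p6, and capitals mark matches to the motifs named next. The gene spans of GENCODE M21 given below begin upstream of the RefSeq start in all 4.
Sftpa1, chr14:41131538-41131787, plus strand: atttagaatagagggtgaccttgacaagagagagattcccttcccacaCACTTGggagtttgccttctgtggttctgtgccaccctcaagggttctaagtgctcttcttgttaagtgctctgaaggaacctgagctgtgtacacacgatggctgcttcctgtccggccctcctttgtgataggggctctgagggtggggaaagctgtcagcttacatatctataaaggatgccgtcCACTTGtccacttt
Slc34a2, chr5:53049103-53049352, plus strand: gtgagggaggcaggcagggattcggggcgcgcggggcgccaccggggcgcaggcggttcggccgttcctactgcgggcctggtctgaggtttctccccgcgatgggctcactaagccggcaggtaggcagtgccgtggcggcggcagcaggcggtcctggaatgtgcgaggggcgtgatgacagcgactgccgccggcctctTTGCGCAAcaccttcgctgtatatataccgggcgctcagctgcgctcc
Fgfr2, chr7:130266809-130267058, minus strand: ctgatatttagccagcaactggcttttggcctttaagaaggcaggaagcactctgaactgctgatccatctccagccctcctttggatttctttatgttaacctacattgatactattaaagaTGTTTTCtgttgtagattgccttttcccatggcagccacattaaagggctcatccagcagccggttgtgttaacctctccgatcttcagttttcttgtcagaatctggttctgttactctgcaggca
Chpt1, chr10:88503971-88504220, minus strand: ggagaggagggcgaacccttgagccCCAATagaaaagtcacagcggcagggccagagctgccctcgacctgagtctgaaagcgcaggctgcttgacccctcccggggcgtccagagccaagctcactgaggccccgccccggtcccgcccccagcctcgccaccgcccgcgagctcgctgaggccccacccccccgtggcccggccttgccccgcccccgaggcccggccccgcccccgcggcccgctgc
A set of 5 motifs was searched on both strands in the 25 of 32 genes with a promoter entry and in all 32851 entries of the same length. The core recognised by NKX2-1, the lung epithelial homeobox factor, was searched as CAAGTG and was present in 11.6% of all promoters and in 3 of the 25. In the Sftpa1 promoter it matched in reverse (CACTTG) from base 202 to base 197 and from base 14 to base 9 before the start. The C/EBP motif TTGCNNAA, present in 9.56% of all promoters and in 3 of the 25, matched in Slc34a2 from base 48 to base 41. The forkhead motif TGTTTNC, in 17.8% of all promoters and 7 of the 25, matched in Fgfr2 from base 127 to base 121. The CCAAT box, in 33.8% of all promoters and 8 of the 25, matched in Chpt1 from base 225 to base 221. The sterol regulatory element TCACNCCAC was in 1.05% of all promoters and in 2 of the 25, Abca3 and Pcyt1a. These 4 windows hold no other match to the 5 motifs, and a match is a run of letters, not a measured binding site.

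The total expected count per library, in units of 1000000, was 25.7 to 42.7 at day 14, 28.0 to 36.2 in vehicle mice and 24.1 to 28.9 in nanoparticle mice. One library stood apart: in nanoparticle mouse 3 the 7 neutrophil markers summed to 1143 CPM (counts per 1000000, over library sizes scaled for composition), against 39.1 to 146.8 CPM in the other 11 libraries, and none of the 7 was at 0 in any library. The macrophage gene Chil3 was 1618 CPM there and 350.5 to 963 CPM elsewhere. The 10 alveolar macrophage markers, which include Chil3, summed to 2032 CPM there and 708 to 1449 CPM elsewhere. The 8 macrophage and monocyte markers summed to 1311 CPM there. That was below the day 14 libraries (1453 to 1535 CPM) and above the other day 21 libraries (866 to 1209 CPM). Sums of 6 dividing cell markers (118 CPM) and 6 pulmonary vein and heart muscle markers (184 CPM) were the lowest of the 12 libraries. The part of this mouse in the results was not tested, and values without it are given beside the results that turn on it. Of the markers that define the type 2 cell, Sftpc ranked 2 among all genes by mean TPM and none of the surfactant proteins was at 0 in any library. In whole-lung RNA, fewer type 2 cells and less RNA per type 2 cell cannot be told apart.

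Compared per transcript length, in TPM (transcripts per 1000000), the genes spanned from Sftpc to Fabp12. Surfactant protein C, a hydrophobic peptide made by type 2 cells alone in the lung, averaged 35850 TPM over the 12 libraries. Sftpa1 (3565 TPM) and Sftpb (3564 TPM) followed at ranks 20 and 21 of all genes, then Sftpd (1181 TPM), Scd1 (1035 TPM) and Chil1 (785 TPM). Ank3 (25.0 TPM), Acaca (22.9 TPM) and Fabp12 (1.57 TPM) were lowest. Sftpa1 was the lower of the pair at day 14 (3068 ± 279 TPM against 3506 ± 138 TPM for Sftpb, mean and SD, n = 4) and the higher in vehicle mice (3820 ± 269 TPM against 3638 ± 83.7 TPM), a difference within the SD of Sftpa1 there. The 32 genes together took 4.36 to 4.92% of all TPM at day 14, 5.03 to 5.74% in vehicle mice and 5.05 to 5.23% in nanoparticle mice. These ranges at day 21 lie above those at day 14, and most of each sum is Sftpc.

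**Figure D1:**
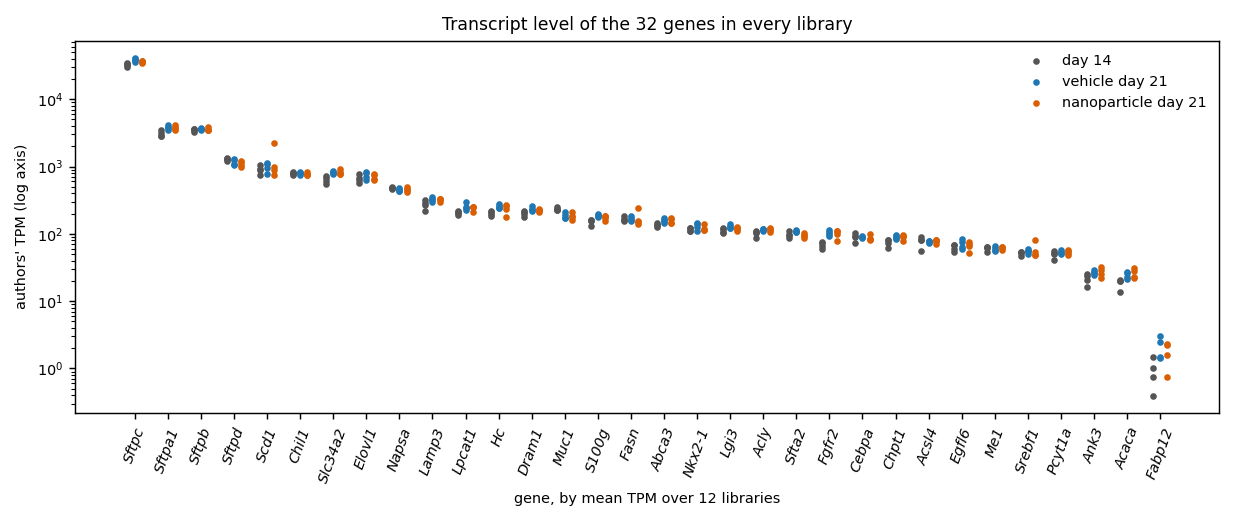
Level of each of the 32 genes in every library, in the authors' TPM on a log axis, with genes ordered by their mean over 12 libraries and points coloured by group. Sftpc, at a mean of 35850 TPM, lies far above Sftpa1 and Sftpb, and Fabp12, at 1.57 TPM, lies far below the others.

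From day 14 to day 21 in vehicle mice, 5 of the 32 genes rose and 0 fell at a Benjamini-Hochberg adjusted p under 0.05 in edgeR. The 5 were Sftpa1, Slc34a2, Fgfr2, Ank3 and Chpt1. Among all genes tested, 3.79% were called higher and 6.51% lower in this comparison, 10.3% in all. At an unadjusted p under 0.05 there were 15 of the 32, against 27.3% of all genes tested. The median log2 fold change of the 32 was 0.17, against 0.00 over all genes tested, and 27 of 32 differences were positive. In 11 genes the 4 vehicle libraries all lay above the 4 of day 14 (7.2% of all genes tested), and in 1 all lay below (10.7%).

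From day 14 to day 21 in nanoparticle mice, 5 genes rose (Sftpa1, Slc34a2, Fgfr2, Fabp12 and Chpt1) and 1 fell (Muc1). The shares of all genes tested were 6.16% higher and 8.56% lower, 14.7% in all. At an unadjusted p under 0.05 there were 13 of the 32, against 30.8% of all genes tested. The median log2 fold change of the 32 was 0.11, against 0.01 over all genes, and 24 of 32 differences were positive. The groups did not overlap in 6 genes with all nanoparticle libraries above (8.47% of all genes tested) and in 2 with all below (10.6%). Both comparisons use the same day 14 mice, so they are not independent of each other. Time, and the injection itself, separate each day 21 group from day 14 and cannot be told apart.

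Between nanoparticle and vehicle mice at day 21, 0 of the 32 genes passed the adjusted threshold in edgeR, and 0% of all genes tested did so. DESeq2 also called 0 of the 32. At an unadjusted p under 0.05 there was 1, Sfta2, where 4.25% of all genes tested passed. The median log2 difference of the 32 was −0.03, against 0.00 over all genes, and the differences ran from −0.25 to 0.28. The groups did not overlap in 1 gene, again Sfta2, with all nanoparticle libraries below (1.75% of all genes tested) and in 0 with all above (1.8%). For the 4 genes that rose from day 14 in both groups, the log2 difference of nanoparticle from vehicle mice was −0.00 for Sftpa1 (95% confidence interval −0.20 to 0.20) and 0.02 for Slc34a2 (−0.17 to 0.21). It was −0.05 for Fgfr2 (−0.21 to 0.12) and 0.03 for Chpt1 (−0.14 to 0.20). Without nanoparticle mouse 3 these values were −0.04 for Sftpa1, −0.03 for Slc34a2, 0.03 for Fgfr2 and 0.09 for Chpt1. Differences inside these intervals cannot be told from 0 with 4 mice a group.

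**Figure D2:**
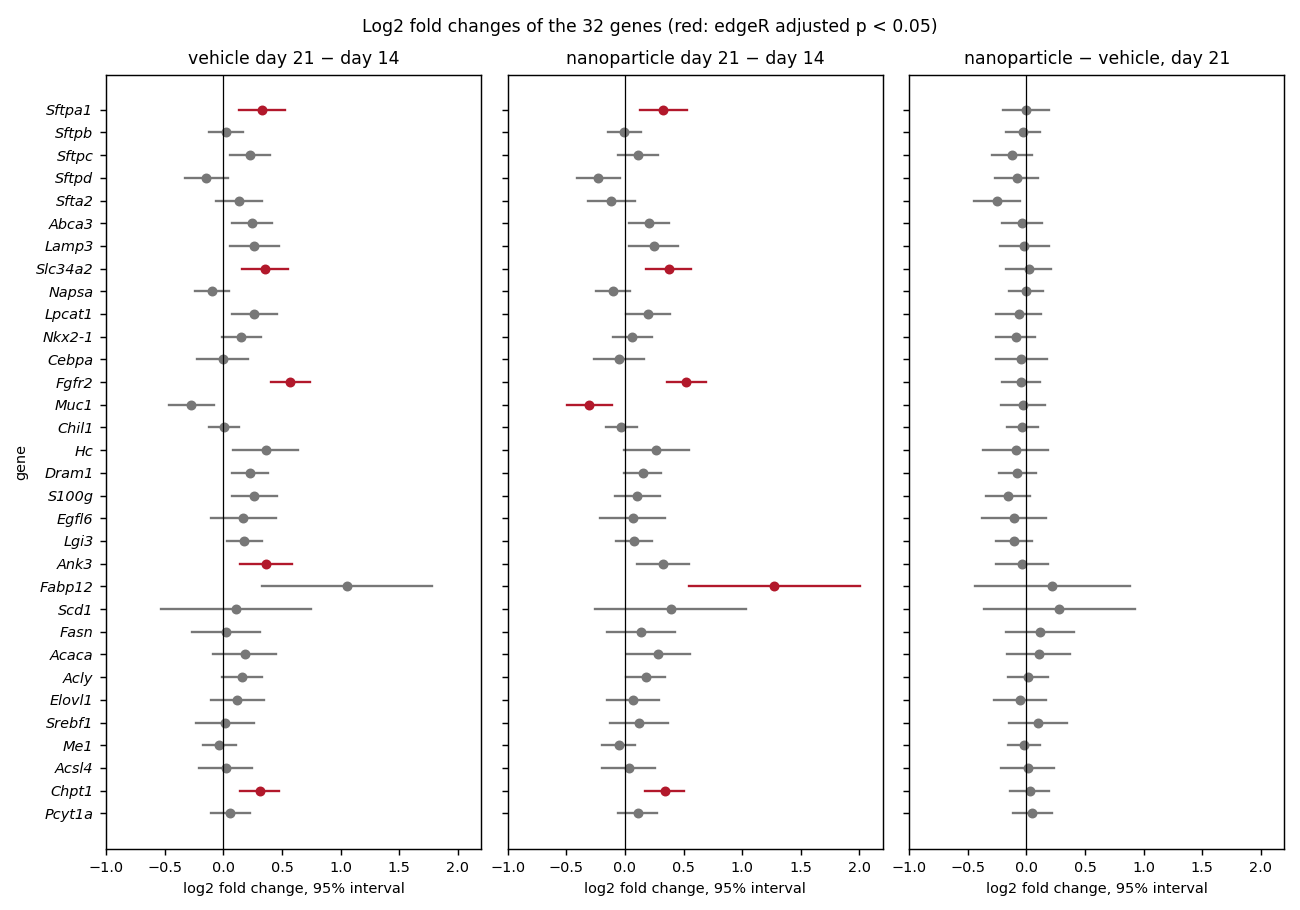
Log2 fold change of each of the 32 genes with its 95% confidence interval in edgeR, for vehicle against day 14, nanoparticle against day 14 and nanoparticle against vehicle. Genes past the adjusted threshold are red: 5 in the left panel, 6 in the middle and 0 on the right.

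Among the surfactant proteins, Sftpa1 rose in both day 21 groups while Sftpb, Sftpc, Sftpd and Sfta2 did not pass the test. Sftpa1 (ENSMUSG00000021789; chromosome 14, 41131782 to 41136452, GRCm38) encodes surfactant protein A, a collectin that binds microbes and takes part in surfactant structure. It measured 2895, 2377, 2507 and 3038 CPM in day 14 mice 1 to 4. In vehicle mice it measured 3341, 3271, 3148 and 3837 CPM, and in nanoparticle mice 3421, 3322, 3677 and 3156 CPM. All 8 day 21 libraries lay above all 4 day 14 libraries, and the day 21 groups overlapped. The change was 0.33 on the log2 scale in vehicle mice (SE 0.09, adjusted p = 0.0380) and 0.33 in nanoparticle mice (SE 0.09, adjusted p = 0.0317), a 1.26-fold rise in each. The vehicle call was lost without day 14 mouse 1, 2 or 3, vehicle mouse 1, 3 or 4, or nanoparticle mouse 2 (adjusted p = 0.0520 to 0.115). The nanoparticle call was lost without day 14 mouse 3 or nanoparticle mouse 1, 2 or 3 (adjusted p = 0.0502 to 0.0956). Each was also lost when only the 2 groups compared were fitted (adjusted p = 0.0562 and 0.0530).

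Sftpc (ENSMUSG00000022097; chromosome 14, 70520949 to 70524081) measured 12772, 11463, 10539 and 11168 CPM at day 14. It measured 13068, 13535, 12423 and 14748 CPM in vehicle mice and 12613, 12218, 12248 and 12427 CPM in nanoparticle mice. In CPM, day 14 mouse 1 lay inside the vehicle range and above every nanoparticle library, while the other 3 day 14 mice lay below every later library. In TPM, day 14 mouse 1 (35111) lay below the lowest vehicle library (35798) and just below the lowest nanoparticle library (35122). The log2 difference from day 14 was 0.23 in vehicle mice (SE 0.08, adjusted p = 0.0833) and 0.11 in nanoparticle mice (SE 0.08, adjusted p = 0.385), past the threshold in neither. The vehicle difference did pass under DESeq2 (adjusted p = 0.00999) and under limma on log2 TPM (adjusted p = 0.0275 and 0.0274 with pseudocounts of 0.1 and 1). Nanoparticle mice differed from vehicle mice by −0.12 (95% confidence interval −0.29 to 0.05).

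Sftpb encodes the hydrophobic surfactant protein B, without which lamellar bodies and the surface film do not form properly. Its levels were 2812, 2796, 2537 and 2706 CPM at day 14, 2711, 2753, 2651 and 2918 CPM in vehicle mice, and 2601, 2641, 2921 and 2653 CPM in nanoparticle mice. The 3 groups overlapped closely. The log2 difference from day 14 was 0.02 in vehicle mice (95% confidence interval −0.12 to 0.17) and −0.00 in nanoparticle mice (−0.15 to 0.14).

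Sftpd encodes surfactant protein D, a collectin of airspace defence, and its differences from day 14 were negative. It measured 934, 841, 872 and 855 CPM at day 14, 739, 822, 706 and 902 CPM in vehicle mice, and 776, 677, 824 and 715 CPM in nanoparticle mice. All nanoparticle libraries lay below day 14, and the vehicle libraries overlapped with it. The log2 difference was −0.14 in vehicle mice (adjusted p = 0.294) and −0.23 in nanoparticle mice (SE 0.09, adjusted p = 0.0889), neither past the threshold. Sfta2, surfactant-associated protein 2, a small secreted protein, was singled out after its values were seen. It measured 18.4, 15.6, 13.7 and 14.7 CPM at day 14, 17.9, 16.8, 17.1 and 17.0 CPM in vehicle mice, and 14.6, 13.2, 16.2 and 13.8 CPM in nanoparticle mice. The nanoparticle libraries were all below the vehicle libraries, with a log2 difference of −0.25 (95% confidence interval −0.45 to −0.05, unadjusted p = 0.0164, adjusted p = 0.999).

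**Figure D3:**
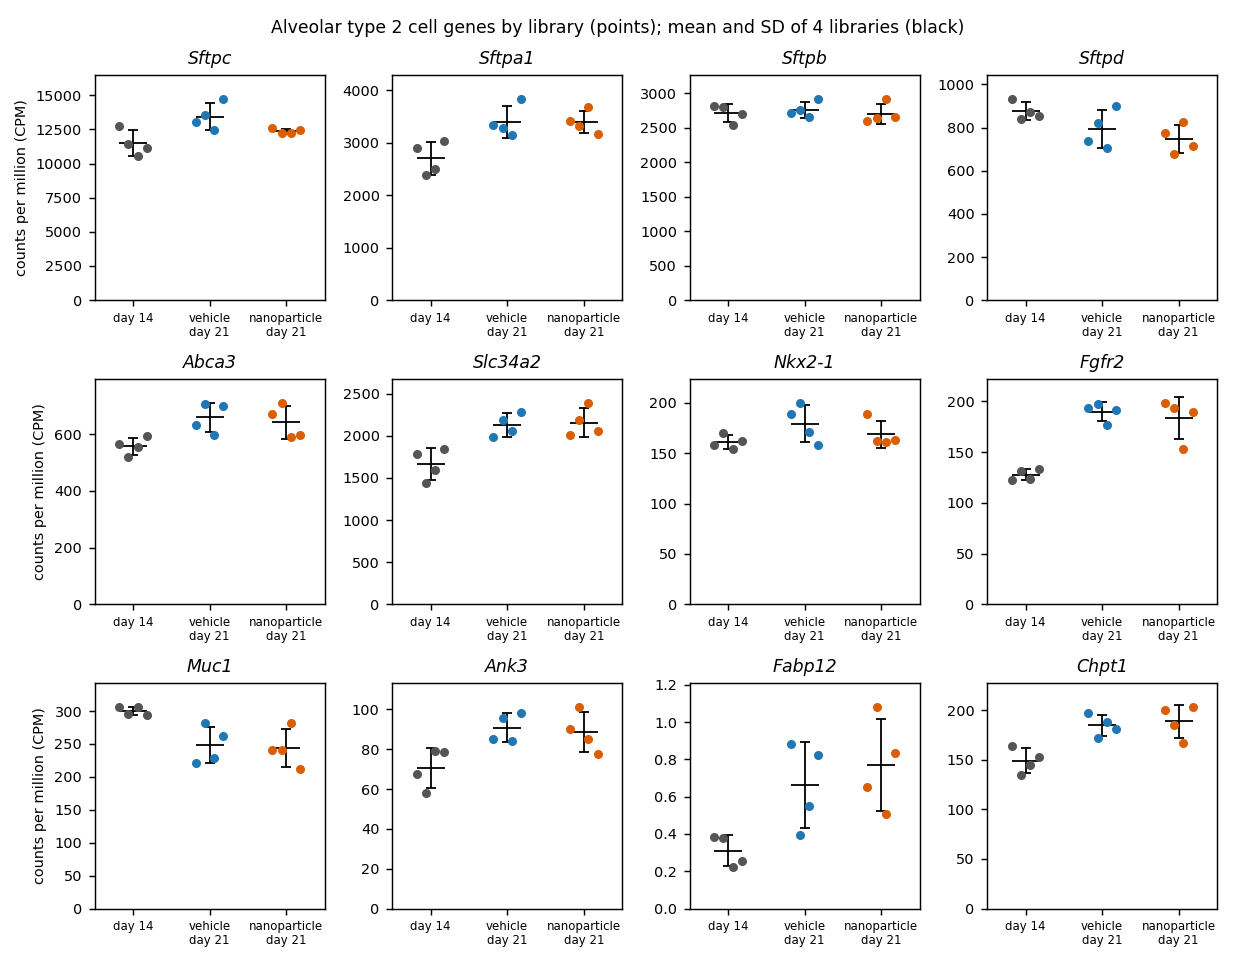
Level in CPM in each library for 12 of the genes, with points for libraries and black bars for the mean and SD of 4. For Sftpa1, Slc34a2, Fgfr2 and Chpt1 every day 21 point lies above every day 14 point, for Muc1 every day 21 point lies below, and for Sftpb the 3 groups overlap.

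Of the 5 genes of lamellar bodies, processing and transport, Slc34a2 rose in both day 21 groups and the other 4 passed in neither. Slc34a2 (ENSMUSG00000029188; chromosome 5, 53038081 to 53071664) encodes the sodium-phosphate cotransporter that takes up phosphate from the alveolar surface. It measured 1779, 1435, 1592 and 1846 CPM at day 14, 1980, 2189, 2050 and 2287 CPM in vehicle mice, and 2003, 2181, 2389 and 2052 CPM in nanoparticle mice. Every day 21 library lay above every day 14 library. The rise on the log2 scale was 0.35 in vehicle mice (SE 0.09, adjusted p = 0.0249) and 0.37 in nanoparticle mice (SE 0.09, adjusted p = 0.0147). The nanoparticle call held in all 19 alternatives, whereas the vehicle call was lost without day 14 mouse 3, vehicle mouse 3 or vehicle mouse 4 (adjusted p = 0.0517 to 0.0787).

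Abca3 encodes the pump that moves phospholipid into lamellar bodies. It measured 565, 520, 554 and 593 CPM at day 14, 634, 707, 599 and 699 CPM in vehicle mice, and 672, 711, 592 and 597 CPM in nanoparticle mice. The vehicle libraries all lay above day 14, and the day 14 maximum of 593 CPM lay just above the lowest nanoparticle library. The log2 differences were 0.24 (SE 0.08, adjusted p = 0.0652) and 0.20 (SE 0.08, adjusted p = 0.0945). Without nanoparticle mouse 3 both passed, at adjusted p = 0.0459 and 0.0498. Both also passed under DESeq2 (adjusted p = 0.0215 and 0.0473). D330041H03Rik, on the opposite strand, covers 9.75% of the exon bases of Abca3. It averaged 3.08 CPM at day 14, 4.17 CPM in vehicle mice and 3.25 CPM in nanoparticle mice.

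Lpcat1, the acyltransferase that remodels phosphatidylcholine into its surfactant form, differed from day 14 by 0.26 on the log2 scale in vehicle mice (adjusted p = 0.0718, all libraries above) and 0.20 in nanoparticle mice (adjusted p = 0.147). The vehicle difference of Lpcat1 passed under DESeq2. Lamp3, a lamellar body membrane protein, had log2 differences of 0.26 and 0.25 (adjusted p = 0.0973 and 0.102), and both passed without day 14 mouse 4 (adjusted p = 0.0442 and 0.0427). Napsa, the aspartic protease that trims surfactant protein precursors, ran the other way, with a log2 difference of −0.10 in each group (adjusted p = 0.355 and 0.320). An antisense gene covers 18.9% of the exon bases of Napsa, and reads of the pair cannot be told apart without strand.

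Of the 3 genes of cell identity and growth signalling, the receptor rose and the transcription factors did not pass. Fgfr2 (ENSMUSG00000030849; chromosome 7, 130162451 to 133123350) encodes a receptor for fibroblast growth factors that epithelium uses to survive and divide. It measured 122, 131, 123 and 134 CPM at day 14, 193, 197, 176 and 191 CPM in vehicle mice, and 198, 193, 153 and 190 CPM in nanoparticle mice. The lowest day 21 library, nanoparticle mouse 3 at 153 CPM, still lay above the highest of day 14 at 134 CPM. The rise was 0.57 on the log2 scale in vehicle mice (SE 0.08, adjusted p = 0.00172; 1.49-fold) and 0.52 in nanoparticle mice (SE 0.08, adjusted p = 0.00116; 1.44-fold). Both calls held in all 19 alternatives, with log2 values of 0.55 to 0.61 and 0.49 to 0.61. Fgfr2 shares 314 exon bases (3.04%) with Ctbp2 on the same strand, and Ctbp2 was 47.6, 46.5 and 51.3 CPM on average in the 3 groups, past the threshold in none of the comparisons.

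Nkx2-1, the homeobox factor that maintains lung epithelial identity, measured 158, 170, 154 and 162 CPM at day 14. It measured 189, 200, 171 and 158 CPM in vehicle mice and 189, 162, 161 and 163 CPM in nanoparticle mice. The groups overlapped, and the log2 differences from day 14 were 0.15 (adjusted p = 0.215) and 0.06 (adjusted p = 0.616). Cebpa, a basic leucine zipper factor of type 2 cell maturation, had log2 differences of −0.01 and −0.05 (adjusted p = 0.979 and 0.777), the latter −0.12 without nanoparticle mouse 3 (adjusted p = 0.444).

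Among 9 further type 2 cell markers, Ank3 rose in vehicle mice, Fabp12 rose in nanoparticle mice and Muc1 fell in nanoparticle mice. Muc1 (ENSMUSG00000042784; chromosome 3, 89229057 to 89233381) encodes a membrane mucin of the apical cell surface. Its day 14 values of 306, 296, 306 and 294 CPM were the tightest of the 3 groups. It then measured 222, 281, 229 and 262 CPM in vehicle mice and 240, 241, 281 and 212 CPM in nanoparticle mice, and all 8 day 21 libraries lay below day 14. The fall was 0.30 on the log2 scale in nanoparticle mice (log2 −0.30, SE 0.09, adjusted p = 0.0370). The vehicle difference was −0.27 (SE 0.09, adjusted p = 0.0643). The nanoparticle call was lost without day 14 mouse 1, 3 or 4 or nanoparticle mouse 1, 2 or 4 (adjusted p = 0.0513 to 0.111). The vehicle difference passed without vehicle mouse 2 (adjusted p = 0.0373) or nanoparticle mouse 3 (adjusted p = 0.0414), and under DESeq2 (adjusted p = 0.0379).

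Ank3 (ENSMUSG00000069601; chromosome 10, 69398773 to 70027438), which encodes ankyrin-G, an adaptor between membrane proteins and the cytoskeleton, measured 67.6, 57.9, 78.9 and 78.4 CPM at day 14. It measured 85.0, 95.8, 84.1 and 98.3 CPM in vehicle mice and 90.4, 101, 85.0 and 77.4 CPM in nanoparticle mice. All vehicle libraries lay above day 14, while nanoparticle mouse 4 lay inside the day 14 range. The rise in vehicle mice was 0.36 on the log2 scale (SE 0.10, adjusted p = 0.0403), and the nanoparticle difference was 0.32 (SE 0.10, adjusted p = 0.0502). The vehicle call was lost without day 14 mouse 1, 2 or 3 or any 1 vehicle mouse (adjusted p = 0.0523 to 0.0984), and on log2 TPM with pseudocounts of 0.1 and 1 (adjusted p = 0.145 and 0.147). The nanoparticle difference passed without day 14 mouse 4 (0.0327), nanoparticle mouse 3 (0.0476) or nanoparticle mouse 4 (0.0450), and under DESeq2 (adjusted p = 0.0238).

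Fabp12 (ENSMUSG00000027530; chromosome 3, 10244209 to 10301183), of the fatty acid binding protein family, had only 6 to 27 counts per library. It measured 0.383, 0.377, 0.224 and 0.253 CPM at day 14, 0.881, 0.392, 0.550 and 0.821 CPM in vehicle mice, and 0.654, 1.08, 0.508 and 0.833 CPM in nanoparticle mice. Every day 21 library lay above day 14, vehicle mouse 2 only just. The rise in nanoparticle mice was 1.27 on the log2 scale (SE 0.34, adjusted p = 0.0239), and the vehicle difference was 1.05 (SE 0.34, adjusted p = 0.0616). The nanoparticle call was lost without day 14 mouse 3, nanoparticle mouse 2 or nanoparticle mouse 4 (adjusted p = 0.0633 to 0.0741) and on log2 TPM, where the value was 0.87 and 0.50 with pseudocounts of 0.1 and 1 (adjusted p = 0.186 and 0.194). Without vehicle mouse 2 the vehicle difference passed (adjusted p = 0.0376).

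The other 6 markers passed in neither comparison. Hc, complement component C5, measured 539 to 689 CPM at day 14 and 748 to 823 CPM in vehicle mice. Among nanoparticle mice it was 528 CPM in mouse 3 and 756 to 869 CPM in the other 3, so mouse 3 alone lay below every day 14 library. Its log2 differences were 0.36 (adjusted p = 0.0872) and 0.27 (adjusted p = 0.173), and without nanoparticle mouse 3 both passed (0.37, adjusted p = 0.0127, and 0.41, adjusted p = 0.00862). Dram1, a regulator of autophagy, differed by 0.23 on the log2 scale in vehicle mice (adjusted p = 0.0593), and S100g, a calcium-binding protein, by 0.26 (adjusted p = 0.0761), both with all vehicle libraries above day 14. The Dram1 difference passed without day 14 mouse 4 (adjusted p = 0.0454) and that of S100g without day 14 mouse 2 (adjusted p = 0.0475). Under DESeq2 the vehicle differences of Hc, Dram1 and S100g all passed. That of S100g also passed under limma on log2 TPM, and that of Hc when only the 2 groups compared were fitted. For the secreted protein genes Lgi3, Egfl6 and Chil1 the vehicle differences were 0.18, 0.17 and 0.01, with overlapping groups. In nanoparticle mice the log2 differences from day 14 were 0.15 for Dram1, 0.10 for S100g, 0.08 for Lgi3, 0.06 for Egfl6 and −0.03 for Chil1. Without nanoparticle mouse 3 the value was 0.06 for S100g and 0.18 for Egfl6, with neither past the threshold.

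**Figure D4:**
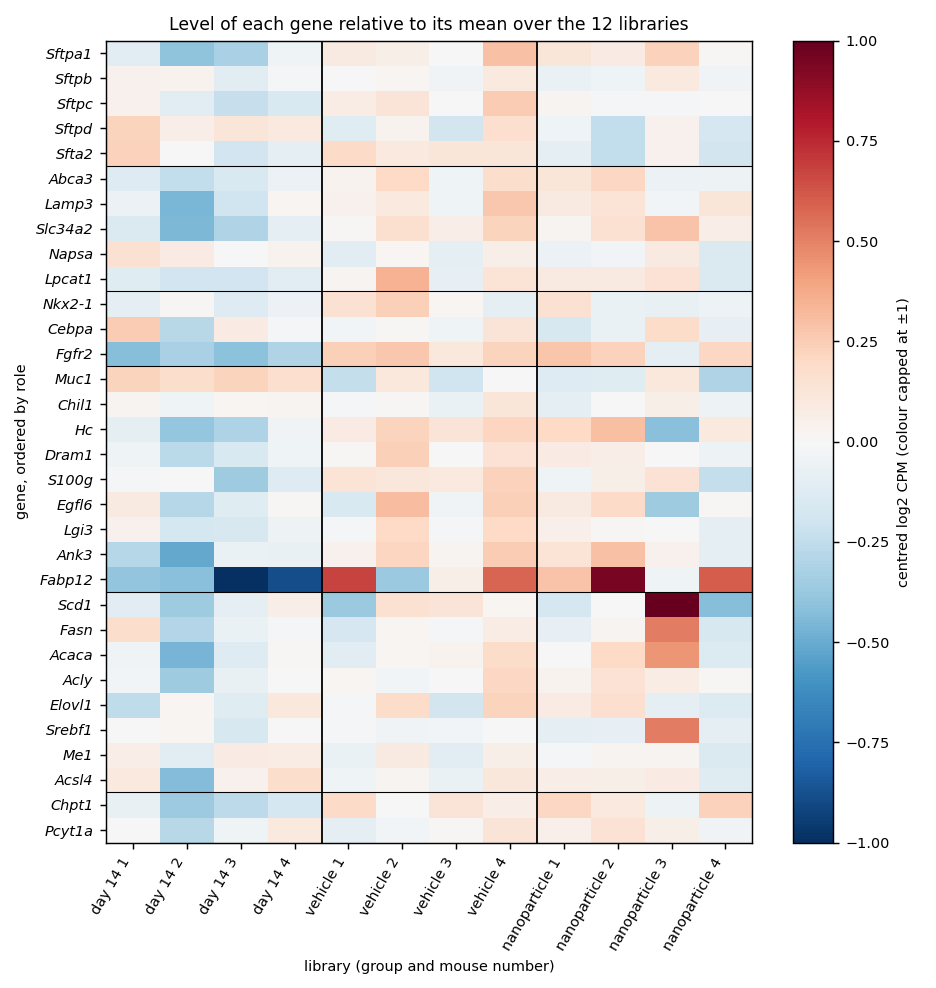
Log2 CPM of each gene in each library relative to the gene's mean over the 12 libraries, with genes ordered by role and libraries by group, and colour capped at 1 in either direction. Fgfr2, Slc34a2 and Chpt1 are lower across the 4 day 14 columns, and Scd1, Fasn and Srebf1 stand out in nanoparticle mouse 3.

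In edgeR 0 of the 8 genes of fatty acid synthesis passed the adjusted threshold in any comparison, and DESeq2 also called 0. At an unadjusted p under 0.05 there were 0 for vehicle against day 14, 2 for nanoparticle against day 14 (Acaca at 0.29 and Acly at 0.18 on the log2 scale) and 0 between the day 21 groups. Their median log2 differences were 0.06 for vehicle against day 14, 0.13 for nanoparticle against day 14 and 0.06 for nanoparticle against vehicle. Without nanoparticle mouse 3 the nanoparticle medians were 0.00 against day 14 (4 of 8 positive) and −0.03 against vehicle (7 of 8 negative). From day 14 the 8 differences ran from −0.03 to 0.18 in vehicle mice and from −0.05 to 0.39 in nanoparticle mice, or from −0.07 to 0.19 without nanoparticle mouse 3. Scd1, the desaturase that makes monounsaturated fatty acids, was singled out after its values were seen. It measured 2837, 2384, 2872 and 3202 CPM at day 14, 2353, 3396, 3335 and 3095 CPM in vehicle mice, and 2700, 3048, 6785 and 2274 CPM in nanoparticle mice. Nanoparticle mouse 3 lay far above the other 11 libraries, which spanned 2274 to 3396 CPM. The log2 difference of nanoparticle mice from vehicle mice was 0.28 with that mouse and −0.19 without it, and from day 14 it was 0.39 and −0.07.

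Fasn, the fatty acid synthase, measured 713, 513, 601 and 621 CPM at day 14, 561, 638, 621 and 663 CPM in vehicle mice, and 593, 640, 899 and 564 CPM in nanoparticle mice. Srebf1, the transcription factor that drives lipogenic genes, measured 115, 117, 103 and 115 CPM at day 14, 115, 112, 113 and 116 CPM in vehicle mice, and 108, 109, 164 and 108 CPM in nanoparticle mice. For both genes nanoparticle mouse 3 was the highest of the 12 libraries, and for Fasn the other 11 showed overlapping groups. For Srebf1 the remaining nanoparticle libraries (108 to 109 CPM) lay below every vehicle library (112 to 116 CPM) and inside the day 14 range (103 to 117 CPM). Without nanoparticle mouse 3 this difference from vehicle still did not pass the adjusted threshold. The nanoparticle difference from vehicle was 0.12 for Fasn and −0.05 without mouse 3, and for Srebf1 0.10 and −0.08. From day 14 the same values were 0.14 and −0.02 for Fasn, and 0.12 and −0.05 for Srebf1.

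Acaca, the carboxylase that makes malonyl-CoA, was also highest in nanoparticle mouse 3, at 133 CPM against 71.0 to 112 CPM elsewhere. Its log2 difference from day 14 was 0.29 with that mouse (adjusted p = 0.138) and 0.18 without it (adjusted p = 0.276), and from vehicle it was 0.10 and −0.01. Acly, which makes cytosolic acetyl-CoA, was 271 CPM there and inside the range of the vehicle group, so not every gene of the pathway was high in that library. The same held for Elovl1, an elongase (413 CPM), and Me1, malic enzyme (123 CPM). Acsl4, an acyl-CoA synthetase, measured 259 CPM there, inside the day 14 range of 182 to 276 CPM. Fat tissue carries the same synthesis genes, and the 9 adipocyte markers that passed the filter summed to 40.8 CPM in nanoparticle mouse 3, against 34.6 to 100.3 CPM in the other libraries. Ucp1, the tenth, did not pass and was at 0 there. Neutrophil markers and Chil3 were high in the same library, and their part in these values was not tested.

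**Figure D5:**
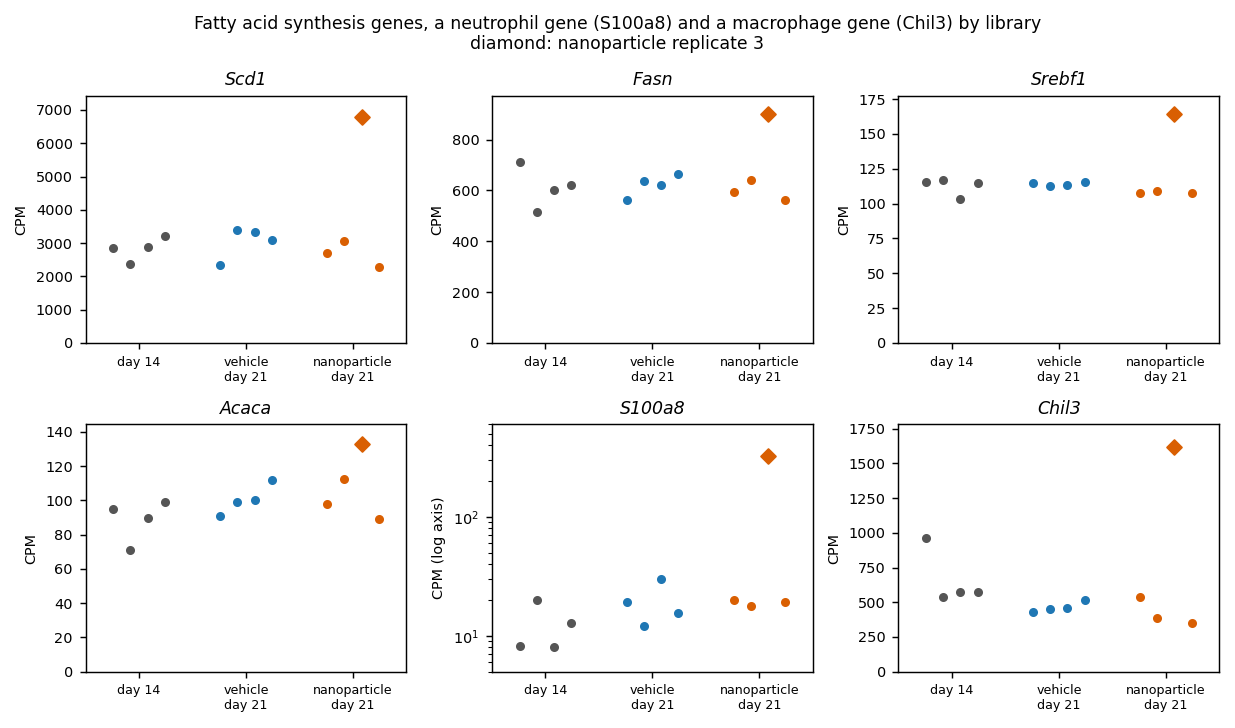
Level in CPM in each library for 4 fatty acid synthesis genes, for the neutrophil gene S100a8 (log axis) and for the macrophage gene Chil3, with nanoparticle mouse 3 drawn as a diamond. The diamond is the highest point in all 6 panels, at 6785 CPM for Scd1 and 322 CPM for S100a8. The other libraries of the 3 groups overlap for Scd1, Fasn and Acaca. For Srebf1 the other nanoparticle points lie below the vehicle points and within the day 14 range.

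In phosphatidylcholine synthesis Chpt1 rose and Pcyt1a did not pass. Chpt1 (ENSMUSG00000060002; chromosome 10, 88452745 to 88504073) encodes cholinephosphotransferase, which transfers phosphocholine to diacylglycerol in the last step of the pathway. It measured 164, 134, 144 and 153 CPM at day 14, 197, 172, 189 and 181 CPM in vehicle mice, and 199.8, 185, 166 and 203 CPM in nanoparticle mice. All 8 day 21 libraries lay above day 14, nanoparticle mouse 3 by the least. The rise on the log2 scale was 0.31 in vehicle mice (SE 0.08, adjusted p = 0.0239; 1.24-fold) and 0.34 in nanoparticle mice (SE 0.08, adjusted p = 0.0117; 1.27-fold). The vehicle call was lost without day 14 mouse 3, vehicle mouse 1 or vehicle mouse 3 (adjusted p = 0.0648 to 0.0757). On log2 TPM, with pseudocounts of 0.1 and 1, both calls were lost (adjusted p = 0.0711 and 0.0710 for vehicle, 0.0811 and 0.0815 for nanoparticle mice). Sycp3, on the opposite strand, covers 7.93% of the exon bases of Chpt1 and averaged 0.291, 0.498 and 0.525 CPM in the 3 groups. Pcyt1a, the rate-limiting enzyme of the pathway, had log2 differences from day 14 of 0.06 and 0.11 (adjusted p = 0.669 and 0.365). Slc51a, on the opposite strand, covers 7.65% of the exon bases of Pcyt1a.

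Other genes of the same pathways, from lists that hold none of the 32, were counted beside the shares of all genes given above (3.79% higher and 6.51% lower in vehicle mice, 6.16% and 8.56% in nanoparticle mice). In edgeR 0 passed between nanoparticle and vehicle mice in any of the 3 lists, with 0 at an unadjusted p under 0.05. Of 22 further fatty acid synthesis genes tested, 2 rose and 0 fell in each comparison with day 14, with a median log2 difference of 0.01 in vehicle mice and 0.02 in nanoparticle mice. The 2, with log2 fold changes in vehicle and then nanoparticle mice, were Insig1, the membrane protein that holds sterol regulatory factors back (0.42 and 0.44, adjusted p = 0.0118 and 0.00703), and Acacb, the mitochondrial carboxylase (0.29 and 0.35, adjusted p = 0.0307 and 0.0115). Of 24 further phospholipid synthesis genes, 0 rose and 3 fell in each comparison, with medians of −0.01 and −0.01. By log2 fold change in the same order, these were the acyltransferases Lpcat4 (−0.46 and −0.37, adjusted p = 0.0136 and 0.0285) and Agpat1 (−0.24 and −0.18, adjusted p = 0.0125 and 0.0327), and Ptdss2, a phosphatidylserine synthase (−0.19 and −0.24, adjusted p = 0.0192 and 0.00548).

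Of 15 genes of surfactant uptake, processing and clearance, 1 rose and 2 fell in each comparison with day 14. The median log2 difference was −0.20 in vehicle mice and −0.11 in nanoparticle mice, with 11 of 15 negative in each. Macrophages express several of these genes, and the 8 macrophage and monocyte markers summed to 1453 to 1535 CPM at day 14, 866 to 1153 CPM in vehicle mice and 952 to 1311 CPM in nanoparticle mice, without overlap with day 14. Of the 8, 3 fell and 0 rose in vehicle mice, 2 fell and 1 rose in nanoparticle mice, and none was at 0. The 10 alveolar macrophage markers summed to 952 to 1449 CPM at day 14, 785 to 928 CPM in vehicle mice and 708 to 2032 CPM in nanoparticle mice. Of the 10, 2 rose and 0 fell in vehicle mice, with a median log2 difference of −0.17. In nanoparticle mice 2 rose and 1 fell, with a median of −0.08. The part of either marker list was not tested. On the log2 scale, the gene of the 15 that rose was Adgrf5, a receptor that restrains the surfactant pool and is also abundant in endothelium (0.35 and 0.46, adjusted p = 0.0473 and 0.0119). Ctsh, a protease that processes surfactant proteins B and C, fell in both (−0.57 and −0.55, adjusted p = 0.0320 and 0.0304). Abcg1, a cholesterol exporter, fell in vehicle mice (−0.30, adjusted p = 0.0431), and Npc2, a cholesterol carrier, fell in nanoparticle mice (−0.45, adjusted p = 0.0235). The difference between the day 21 groups was past the threshold for neither of these 2 genes.

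Lists of other epithelial markers and of dividing cell markers were counted beside these genes. Of 11 transitional epithelium markers, 9 fell in vehicle mice and 8 in nanoparticle mice, and their summed level was 1518 to 1768 CPM at day 14, 1100 to 1264 CPM in vehicle mice and 1038 to 1315 CPM in nanoparticle mice. Of 6 pan-epithelial markers, 0 rose and 1 (Krt18) fell in each comparison, with sums of 719.9 to 798 CPM, 622 to 722 CPM and 623 to 687 CPM. Of 10 alveolar type 1 cell markers, 1 rose and 2 fell in each comparison, with median log2 differences of 0.07 in vehicle and 0.05 in nanoparticle mice. Of 8 club and ciliated cell markers, 2 rose and 0 fell in each, with medians of 0.15 and 0.06. All 6 markers of dividing cells fell in each comparison, with sums of 320.1 to 349 CPM at day 14 and 118 to 201 CPM at day 21. Nanoparticle mouse 3 gave the lowest of these sums. Of 10 type 2 cell markers that are not among the 32, Etv5, a factor of type 2 cell identity, and Bex2 rose in vehicle mice (log2 fold changes of 0.42 and 0.82, adjusted p = 0.0265 and 0.0474), and Ctsh fell. In nanoparticle mice Bex2 rose, and Ctsh and Npc2 fell. The median of the 10 was −0.06 and −0.08 on the log2 scale, with 6 of 10 negative in each comparison, against medians of 0.17 and 0.11 for the 32. Ctsh and Npc2 are also in the list of uptake, processing and clearance genes, and the part of macrophages in the 10 was not tested. The 10 summed to 14355 to 15552 CPM at day 14, 12922 to 15110 CPM in vehicle mice and 12207 to 14672 CPM in nanoparticle mice, which overlap. The part of these marker lists in the levels of the 32 genes was not tested.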

How the data were processed

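Libraries of polyA RNA from 12 whole lungs were sequenced with paired 151 bp reads, per the labels' protocols. Trimming with cutadapt 4.8, alignment tool STAR 2.7.8a, RSEM 1.3.3 and GRCm38 are named in the submitters' processing notes. Neither strand setting nor annotation release is given in the sources used here. Expected counts per gene were deposited by the authors as whole numbers, and 0 columns lacked a sample. TPM values, also deposited, had been scaled by the authors for length and to the same total per library, and were used for levels between genes. The deposited FPKM table was not used.

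Counts were fitted with edgeR 4.0.16 in R 4.3.3: filterByExpr by group (minimum count 10, total 15), TMM scaling, one robust quasi-likelihood fit of the 12 libraries with a group term (statmod 1.5.0), and two-sided contrasts with glmQLFTest. Benjamini-Hochberg adjustment ran over 17909 genes, with a threshold of 0.05. CPM are counts over TMM-scaled library sizes. The replicates are mice numbered separately within each group, and p-values measure the spread between them. Replicate libraries differed beyond counting noise (chi-square per degree of freedom 8.17 to 33.7). The common biological coefficient of variation was 0.119.

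Alternatives were DESeq2 1.42.0, its size factors in edgeR, no low-count filter, limma 3.58.1 on log2(TPM + 0.1) and log2(TPM + 1), a fit of only the 2 groups compared, a replicate block, and each library left out, 19 per comparison. The 32 genes and all lists were chosen with earlier results of these data known. Values in every library are given for each of the 32 genes past the threshold in a comparison and for Sftpa1, Sftpb, Sftpc, Sftpd, Abca3, Nkx2-1, Srebf1 and Fasn. From the lists of other pathway genes, up to 4 of smallest p are named; Sfta2 and Scd1 were added after their values were seen. Gene positions are from GENCODE M21 on GRCm38. On simulated data for vehicle against day 14 (3 runs, 17717 genes), the test recovered 10.9% of genes changed 1.25-fold, 58.7% changed 1.5-fold and 80.3% changed 2-fold, with 4.67 false calls per run. Over the 3 runs only 201, 201 and 198 genes were changed at these folds. The data gave 1845 calls in that comparison, so the shares recovered may differ there.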

Additional observations from a re-analysis of the deposited data

Results flagged for a closer look

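Over the 32 genes in 3 groups, 96 sets of 4 libraries were examined for a library far from the other 3, and 7 were found; chance gives about 1 in 20. Of the 7, 2 were in nanoparticle mouse 3: Srebf1 at 164 CPM, against 108 to 109 CPM in the other nanoparticle mice, and Sftpb at 2921 CPM, against 2601 to 2653 CPM. Nanoparticle mouse 1 was high for Nkx2-1 (189 CPM), and nanoparticle mouse 4 was low for Acsl4 (226 CPM). Day 14 mouse 2 was low for Chil1 (717 CPM) and for Me1 (112 CPM), and day 14 mouse 3 was low for Srebf1 (103 CPM).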

How the results depend on the processing

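Fgfr2 kept its call in both comparisons with day 14, and Slc34a2 in the nanoparticle comparison, in all 19 alternatives. For vehicle against day 14, DESeq2 called 11 of the 32 genes higher and 1 lower in place of 5 and 0, and leaving out 1 library gave 1 to 7 higher (1 without day 14 mouse 3 or vehicle mouse 3) and 0 to 1 lower. For nanoparticle against day 14, limma on log2 TPM called 3 higher with a pseudocount of 0.1 and 3 with 1, in place of 5, and leaving out 1 library gave 3 to 7 higher and 0 to 1 lower. Nanoparticle against vehicle gave 0 of the 32 in every alternative, while DESeq2 called 17 other genes higher and 2 lower. Over all genes, the 679 higher and 1166 lower calls of vehicle against day 14 became 1125 and 1482 with DESeq2, 326 and 669 or 337 and 714 with limma, and 212 to 897 and 492 to 1265 with 1 library left out. For nanoparticle against day 14, 1103 and 1533 became 604 and 973 or 607 and 1000 with limma, 702 and 970 with only those groups, and 495 to 1358 and 837 to 1594 with 1 library left out. The causes were not tested.

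Differences near 0 changed sign. The Sftpb log2 difference of nanoparticle from day 14 (−0.0049) was 0.0029 with DESeq2 size factors, 0.0048 in DESeq2, 0.016 in limma with a pseudocount of 0.1, 0.016 with 1, and 0.0021 with only those groups. With 1 library left out it ran from −0.036 to 0.021, and the vehicle value from −0.0068 to 0.051. Such ranges were −0.043 to 0.10 for Fasn and −0.022 to 0.047 for Srebf1 in vehicle against day 14, and −0.068 to 0.57 for Scd1, −0.019 to 0.22 for Fasn and −0.048 to 0.18 for Srebf1 in nanoparticle against day 14. In nanoparticle against vehicle they were −0.19 to 0.46 for Scd1, −0.051 to 0.19 for Fasn and −0.075 to 0.16 for Srebf1.

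Mouse numbers were given within each group. Over 12 same-numbered pairs of libraries the correlation of deviations was −0.0744 to 0.148, with 2 above 0.1, so the numbers were not taken as pairing. A fit with the number as a replicate block called 0 genes lower in nanoparticle against day 14 in place of 1 (Muc1, adjusted p = 0.0506), 5 higher there, and 4 higher in vehicle against day 14 (without Ank3, adjusted p = 0.0761). Depth limits Fabp12 most, at 6 to 27 counts per library.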
